A study of Canis lupus familiaris with 17 samples.

Results

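Among the 17 dogs whose olfactory epithelium was sequenced, 10 carried scent code 0, and these 10 were compared by body size: 4 dogs in the labelled weight class Over_10 against 6 in Below_10. Members were chosen by the scent label alone, so that every dog compared carried the same code. The meaning of the code is not spelled out in the labels. The Over_10 dogs were a Doberman pinscher (32 kg, labelled age 6), a Cocker Spaniel (12.247 kg, age 9), a Bulldog terrier (27.2 kg, age 3) and an English pointer (24.9 kg, age 14). The Below_10 dogs were a Pomeranian (7.8 kg, age 6), a Jack Russel Terrier (7.2 kg, age 14), a Miniature Schnauzer (7.25 kg, age 12), a Chinese Crested (6.4 kg, age 5), a Poodle (9.79 kg, age 5) and a rat terrier (5 kg, age 10), with breeds spelled as in the labels and no unit given for age. No treatment is given, each breed is 1 dog, and breed, size and individual therefore cannot be told apart. Batch 2 held 2 dogs of each class, batch 3 held 1 of each, batch 6 held 1 Over_10 and 2 Below_10 dogs, and batch 1 held the Pomeranian alone.

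The olfactory epithelium lines the back of the nasal cavity and holds sensory neurons among supporting, basal and gland cells. Each mature sensory neuron expresses mainly a single odorant receptor gene out of a very large family, whose members sit in clusters on many chromosomes. The RNA level of any 1 receptor in the tissue therefore depends on how many neurons chose it as well as on how much RNA each of them makes. In bulk tissue, fewer cells of a type and less RNA per cell cannot be told apart.

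The count table pairs no feature with a gene symbol. Of its 32912 features, 32704 carry Ensembl-style dog gene IDs, of which 0 matched the RefSeq table of assembly UU_Cfam_GSD_1.0, so the tissue could not be checked against marker genes. The other 208 bear the name of a chromosome followed by an index, among them 44 on chromosome 21, 45 on chromosome 18, 16 on chromosome 20, 13 on chromosome 14, 12 on chromosome 5, 10 on chromosome 27 and 15 on unplaced sequence. In the RefSeq table the same chromosomes hold 198, 196, 74, 41, 44 and 38 genes with olfactory receptor symbols, out of 893 in all. The files do not say what these 208 features are, so they are called chromosome-named features here.

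Library totals of the 10 dogs ran from 10536639 to 13209206 counts, except for the Cocker Spaniel with 29240086. The 10 most abundant features took 19.8% of the counts in that library and 18.2% in the Pomeranian, against 6.72% to 10.2% in the other 8. The gap between classes was within the spread (11.6% ± 5.47 in 4 Over_10 and 10.2% ± 4.15 in 6 Below_10 dogs, SD; two-sided exact permutation p = 0.595). RNA integrity numbers (RIN) lay between 7.5 and 8.6 in Over_10 and between 7.6 and 9.1 in Below_10 dogs.

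The Cocker Spaniel library stood apart in a second way: it resembled the library of another dog, a scent code 1 dog labelled Dachsund (Below_10, 9.5 kg, batch 1). Across the 208 chromosome-named features the Spearman correlation of these libraries was 0.985, whereas the highest value among the other 135 pairs of libraries was 0.863 and the median 0.616. These features share a library's depth and composition, so the correlation is a description. Of the 81 chromosome-named features with at least 50 reads in the Dachsund library, every one had between 0.271 and 0.985 times as many reads in the Cocker Spaniel library, with a median of 0.691. In each of the 15 other libraries at least 1 of the 81 was at 0.0292 times the Dachsund count or lower, and in 13 of them at least 1 was at 0. Summed by chromosome the ratio was 0.836 for chromosome 5 (392 against 469 reads), 0.716 for chromosome 21 (879 against 1227) and 0.549 for chromosome 18 (6167 against 11226). Over all 9246 features with at least 200 Dachsund reads, the first percentile of the ratio was 0.553, so that few abundant Dachsund transcripts were scarce in the Cocker Spaniel library. Both are among the 4 libraries whose names end in rep1, and they have the highest totals of the series. Whether they share RNA, library or reads was not tested. Results are therefore given with all 10 dogs and without the Cocker Spaniel library, a choice made after these values were seen. The likeness to a Below_10 dog was seen in the same chromosome-named features that are compared below. Leaving that library out thus favours a class difference in them, and p-values for them without it are descriptions only.

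**Figure D1:**
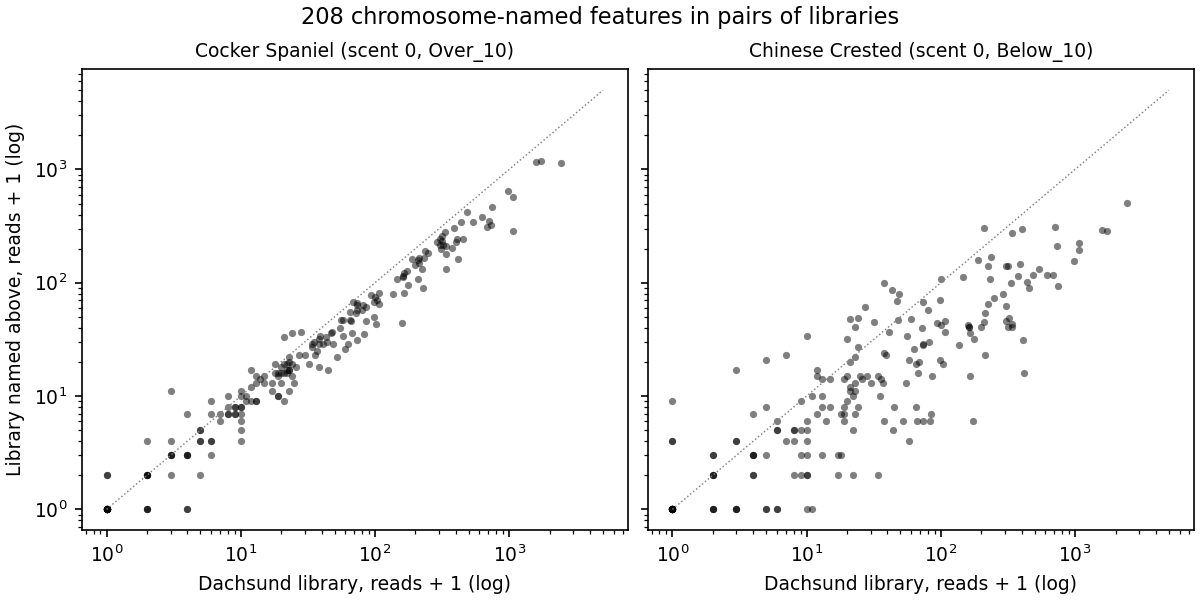
Reads plus 1 (both axes log) of the 208 chromosome-named features in the scent code 1 Dachsund library against the Cocker Spaniel library (left) and the Chinese Crested library (right), the pair with the next highest correlation. Points follow a narrow band on the left (Spearman 0.985) and scatter on the right (0.863); the dotted line marks equal reads.

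The first question was which transcripts differ between large and small dogs once the scent code is held constant. With batch in the model, 267 of 16257 features were called (1.64%; edgeR's quasi-likelihood test, adjusted p under 0.05), with 132 of them above (0.812%) and 135 below (0.83%) in the larger dogs. Their median log2 difference was 1.69 among the higher and -1.43 among the lower features, and the difference exceeded 4-fold for 49 and 15 of them. With the Cocker Spaniel library left out, 1747 of 16580 were called (10.5%), 769 higher (4.64%) and 978 lower (5.9%). All of the 267 were among these 1747, in fits that share all dogs but that one. The common biological coefficient of variation went from 0.387 to 0.322 when that library was left out. The Cocker Spaniel was also the lightest Over_10 dog, at 12.247 kg against 24.9 to 32 kg in the others. What its library and what its weight contributed cannot be told apart.

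The number called changed with single dogs, and all 267 calls lay close to the threshold, as no edgeR adjusted p of that fit was below 0.0408. Leaving out 1 dog of a batch with both classes also took the residual degrees of freedom from 5 to 4. What a dog and what the lost degree of freedom contributed cannot be told apart. With all 10 dogs as the start, 0 features were called by edgeR without the Doberman pinscher, the Bulldog terrier, the English pointer, the Jack Russel Terrier, the Chinese Crested, the Poodle or the rat terrier, although 2788 to 3312 had an unadjusted p under 0.05 in these fits. All of the 267 that were still tested kept their sign in these fits. Among these dogs batch 3 holds only the Bulldog terrier and the Chinese Crested, so leaving out either takes the other out of the contrast. Without the Miniature Schnauzer 945 were called and without the Pomeranian 196. From the 9 dogs other than the Cocker Spaniel, leaving out 1 more gave 0 without the Poodle, 2 without the Chinese Crested or the Bulldog terrier, 33 without the Doberman pinscher, 238 without the rat terrier, 244 without the English pointer and 1593 to 2148 without 1 of the other 3. RIN as a covariate ended all calls in both sets of dogs (2500 and 3323 at an unadjusted p under 0.05), while all 267 features kept their sign with it. The 267 were chosen in the 10-dog fit, and all these fits reuse the same dogs. Kept signs are therefore no independent support.

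**Figure D2:**
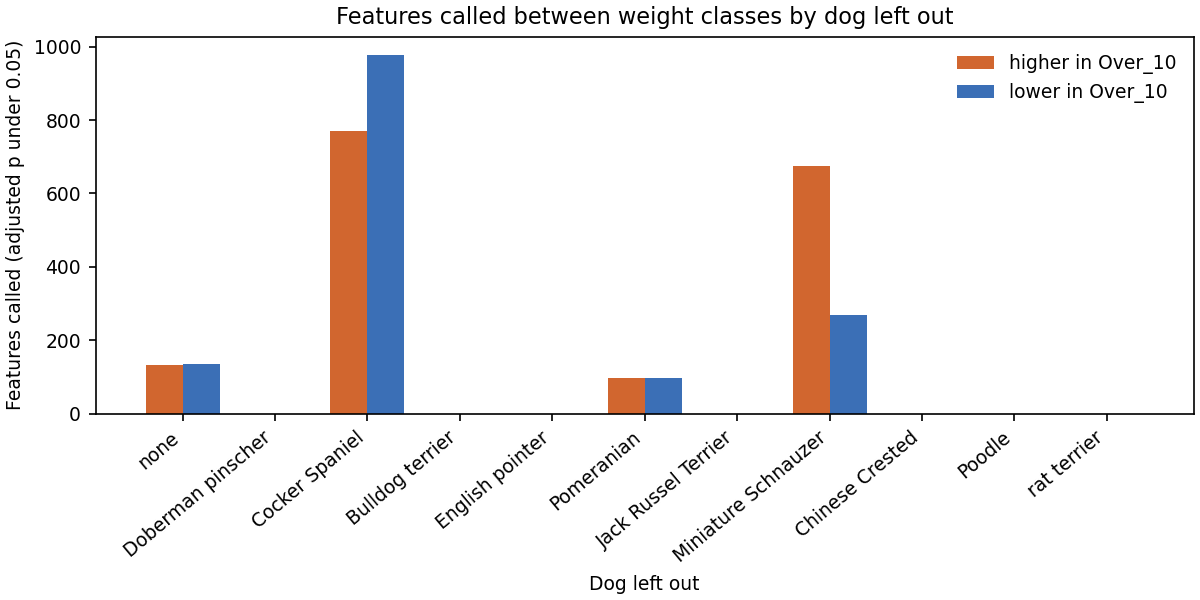
Number of features called higher (orange) and lower (blue) in Over_10 dogs when no dog or the dog named on the x axis was left out. Calls rose to 769 and 978 without the Cocker Spaniel library and fell to 0 without any of 7 other dogs.

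The 2 feature IDs with the smallest p in each direction show what the called difference looked like dog by dog. ENSCAFG00000023202 stood at 25.4, 30.6, 23.3 and 24.6 CPM (read counts relative to library size, corrected with edgeR's TMM factors) in the Doberman pinscher, Cocker Spaniel, Bulldog terrier and English pointer. In the Jack Russel Terrier, Miniature Schnauzer, Chinese Crested, Poodle and rat terrier it stood at 9.28, 7.62, 3.13, 6.40 and 5.76 CPM, and in the Pomeranian at 41.2 CPM. All 4 large dogs were thus above 5 of the small dogs and below the Pomeranian. Its fitted log2 difference was 2.04 ± 0.24 (SE, edgeR adjusted p = 0.0408).

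ENSCAFG00000007949 had the same shape. Its level was 255, 203, 115 and 149 CPM in the Over_10 dogs in that order, 43.0 to 51.4 CPM in 5 Below_10 dogs and 198 CPM in the Pomeranian (log2 difference 1.87 ± 0.23, SE, edgeR adjusted p = 0.0408). The 5 small dogs of the batches with both classes lay within a narrow range, and the Pomeranian lay among the large dogs. Choice by smallest p favours features with little spread within these batches, so the narrow range is no separate result.

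In the other direction, ENSCAFG00000012081 stood at 43.4, 41.9, 99.9 and 73.6 CPM in Over_10 dogs. The Jack Russel Terrier, Miniature Schnauzer, Chinese Crested, Poodle and rat terrier had 125, 115, 275, 203 and 167 CPM, above every large dog, and the Pomeranian had 46.8 CPM (log2 difference -1.46 ± 0.16, SE, edgeR adjusted p = 0.0408). ENSCAFG00000015833 was near the floor in the large dogs, with 1, 4, 1 and 2 reads, and in the Pomeranian, with 2 reads. The other Below_10 dogs had 30, 34, 81, 49 and 58 reads, and the fitted log2 difference was -4.64 ± 0.51 (SE, edgeR adjusted p = 0.0408). With so few reads its size is uncertain. Each of these 4 features was called in 3 of the 10 fits without 1 dog and kept its sign in all 10. These fits share dogs with the fit that chose the 4 features. With the Cocker Spaniel library left out the log2 differences were 2.08, 1.87, -1.42 and -5.07 in the order given (edgeR adjusted p = 0.0261, 0.0261, 0.0250 and 0.0250). With RIN as a covariate and all 10 dogs they were 1.94, 1.98, -1.42 and -4.49 (edgeR adjusted p = 0.138 for each).

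**Figure D3:**
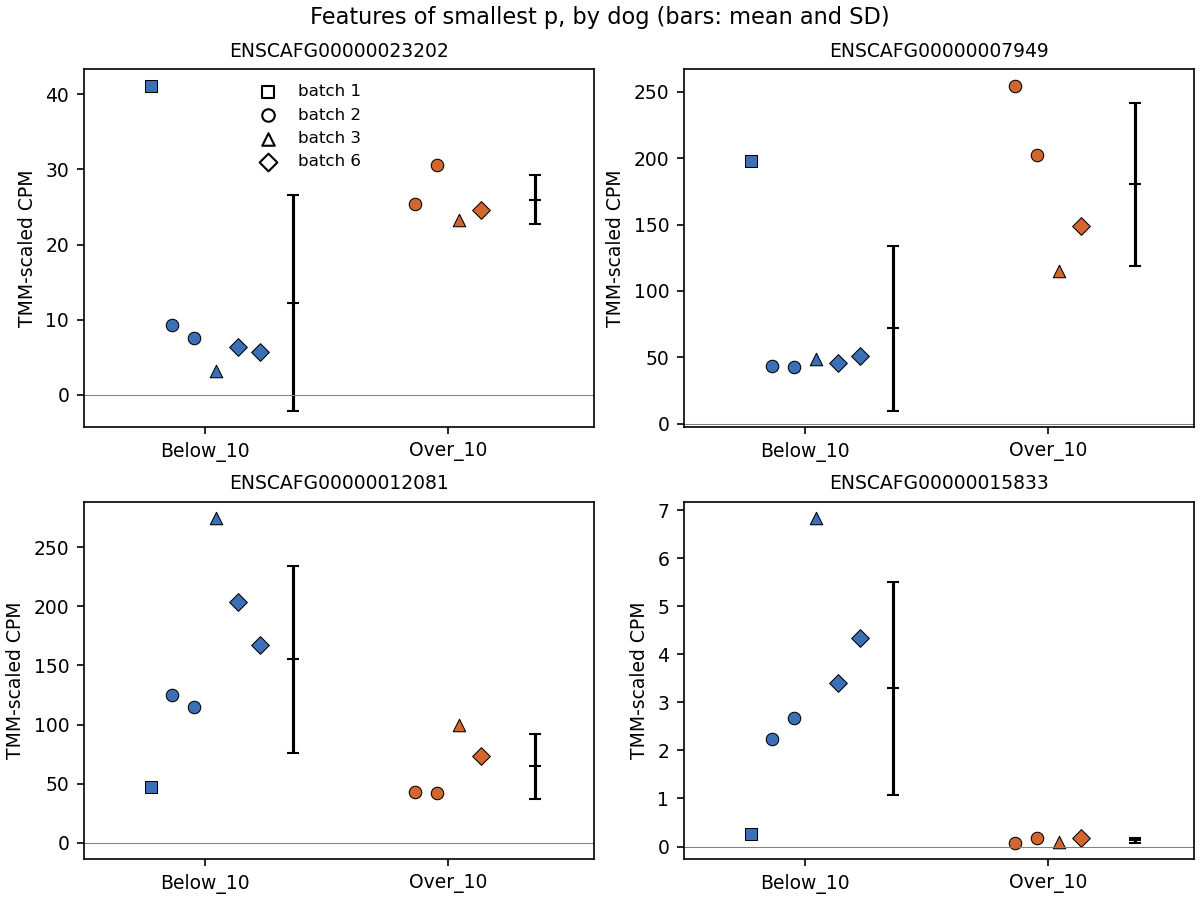
TMM-scaled CPM of the 4 feature IDs in each scent code 0 dog, by weight class, with marker shape for batch and bars for the mean and SD (n = 6 and n = 4). The Pomeranian, the single dog of batch 1 (square), sits at 41.2 CPM for ENSCAFG00000023202 and 2 reads (0.258 CPM) for ENSCAFG00000015833, apart from the 5 other Below_10 dogs.

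Some dogs took no direct part in the fitted difference between classes. The Pomeranian is alone in its batch, so it does not enter the contrast within batches, although it bears on scaling, filter and spread and so in part on which features were called (196 without it). In 224 of the 267 features called with 10 dogs (83.9%) its level was nearer the Over_10 mean than that of the 5 other Below_10 dogs, against 66.1% of all features tested. For the 1747 features called without the Cocker Spaniel library this share was 54.5%, against 54.4% of all tested. In the 46 chromosome-named features among those 1747 it was 1 of 46. Over all chromosome-named features tested it was 28 of 101 with 10 dogs and 18 of 114 without the Cocker Spaniel library, so that most of these were nearer the small dogs in either set. The Pomeranian's own reads helped such features pass the filter. Without it 88 in place of 101 were tested, and without the Cocker Spaniel library as well 100 in place of 114, with 37 in place of 46 called. These shares are therefore not independent of the fit.

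Batch 4 holds 1 dog of each class, both of scent code 1, and shares no dog with the fit. There 215 of the 267 called features (80.5%) differed the same way as in scent code 0 dogs, as did 61.3% of all features tested. Of the 1747 features called without the Cocker Spaniel library, 1377 did so (78.8%, against 61.5% of all tested), and of the 46 chromosome-named features among them 44. Over all chromosome-named features tested, 82 of 101 did so with 10 dogs and 82 of 114 without that library. These are 2 dogs, so the shares carry no test.

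Without regard to batch, 362 of the 16257 features (2.23%) were higher in every Over_10 dog than in any Below_10 dog, and 187 (1.15%) were lower in every one. In 1 feature (0.00615%) the highest large dog lay more than 4-fold below the lowest small dog. Among the 9 dogs other than the Cocker Spaniel these numbers were 711 (4.29%) and 779 (4.7%) of 16580, and 154 features (0.929%) had all 3 large dogs more than 4-fold below every small dog, whereas the reverse held for 1 (0.00603%). Of these 154, 31 were chromosome-named, among 114 such features tested, and 14 of them were on chromosome 21. Features can pass the filter through the small dogs alone. Of the 114, 21 had no read in the 3 large dogs, as did 11 of the 18 tested on chromosome 21. The 31 are therefore in part set by the filter. With all 10 dogs, 0 of 101 chromosome-named features met that 4-fold rule and 3 of 101 were lower in every large dog. No chromosome-named feature was higher in every large dog, with or without that library.

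Fewer chromosome-named features were detected in the large dogs. After each library had been thinned to 10536639 counts, 159, 106, 133, 139, 124 and 112 of the 208 had at least 5 reads in the Pomeranian, Jack Russel Terrier, Miniature Schnauzer, Chinese Crested, Poodle and rat terrier. The Doberman pinscher, Bulldog terrier and English pointer had 31, 56 and 63, and the Cocker Spaniel 119. The means were 129 ± 19.3 (SD, n = 6) in Below_10 and 67.2 ± 37.1 (n = 4) in Over_10 dogs (two-sided exact permutation p = 0.0143 over 210 splits). Over the 36 splits that keep each batch's numbers the difference of -56.6 did not pass (exact permutation p = 0.0833). It was -44.5 in batch 2, and the corresponding values of batches 3 and 6 were -83 and -55. Without the Cocker Spaniel library the Over_10 mean was 50 ± 16.8 (n = 3), every small dog was above every large dog, and the p was the smallest that the 84 splits can give (exact permutation p = 0.0119). Within batches it was likewise the smallest possible, which for 18 splits is 0.0556.

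Their summed level was less separated. It was 80.3, 183 and 268 CPM in the Doberman pinscher, Bulldog terrier and English pointer and 769 CPM in the Cocker Spaniel. Below_10 dogs had 172 CPM at the lowest (Jack Russel Terrier), a median of 393 and 1272 CPM at the highest (Pomeranian). On the log2 scale the means were 7.87 ± 1.35 (SD, n = 4) and 8.79 ± 0.99 (n = 6), a difference within the spread between dogs (exact permutation p = 0.243). Without the Cocker Spaniel library the log2 difference was -1.49 in place of -0.92 (exact permutation p = 0.0714). In batch 2 that library turned the direction, from -1.56 without it to 0.07 with it.

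Levels were summed for the 7 groups of at least 10 features, and among these chromosomes 5 and 21 had the largest differences, though neither passed after adjustment with all 10 dogs. The 12 features of chromosome 5 held 4, 7 and 5 reads in all in the Doberman pinscher, Bulldog terrier and English pointer, or 0.315, 0.600 and 0.419 CPM. In Below_10 dogs they held 1103, 185, 166, 291, 190 and 226 reads, or 13.0 to 142 CPM, and in the Cocker Spaniel 392 reads (17.7 CPM). The Cocker Spaniel was the only large dog within the range of the small dogs. The mean log2 level, after adding 0.5 CPM, was 0.98 ± 2.15 (SD, n = 4) in Over_10 and 4.55 ± 1.32 (n = 6) in Below_10 dogs (difference -3.57, exact permutation p = 0.0238, adjusted p = 0.0833 over 7 groups of features). Without the Cocker Spaniel library it was -4.64 (exact permutation p = 0.0119, adjusted p = 0.0417). The added 0.5 CPM is near the level of the 3 large dogs and bounds the fold.

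Chromosome 21, whose 44 features include 32 with no read in any of the 3 large dogs and 3 with no read in any of the 6 small dogs, behaved alike. These counts set 3 libraries against 6 and so are not at equal depth. On chromosome 18 they were 14 and 2 of 45 features, and in the unplaced group 8 and 2 of 15. The chromosome 21 features summed to 1.65, 3.26 and 3.69 CPM in those large dogs, to 39.7 CPM in the Cocker Spaniel and to 340, 27.9, 50.1, 37.3, 38.7 and 26.95 CPM in the small dogs in the order above. The Pomeranian was the highest and the 5 other small dogs lay close together. The log2 difference was -3.10 with 10 dogs (exact permutation p = 0.0238, adjusted p = 0.0833) and -4.01 without the Cocker Spaniel library (exact permutation p = 0.0119, adjusted p = 0.0417). Without the Pomeranian as well, the log2 differences were -4.12 for chromosome 5 and -3.47 for chromosome 21 (adjusted exact permutation p = 0.0625 for both). That is the smallest adjusted p open to these chromosomes alone with so few splits, so neither could have passed. In each of batches 2, 3 and 6 both chromosomes were lower in Over_10 dogs, also with the Cocker Spaniel in place: by -1.85, -4.51 and -4.07 log2 units for chromosome 5 and -2.03, -3.33 and -2.97 for chromosome 21. Over the splits within batches neither passed with 10 dogs (adjusted exact permutation p = 0.292 for both) or without the Cocker Spaniel library (0.130 for both), where the 18 splits allow no p below 0.0556. The 36 splits of the 10 dogs allow no unadjusted exact permutation p below 0.0278, too high for these chromosomes alone to pass after adjustment.

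The remaining groups of features differed less or not beyond the spread. Chromosome 20 stood at 4.25, 21.9 and 18.8 CPM in the 3 large dogs, 56.2 CPM in the Cocker Spaniel and 20.2 to 75.2 CPM in the small dogs (log2 difference -1.13, adjusted exact permutation p = 0.311; without the Cocker Spaniel library -1.67, adjusted p = 0.0556). The Bulldog terrier lay within the range of the small dogs there. Chromosome 18, the group with the most features, ran from 35.8 to 88.8 CPM in the 3 large dogs and from 28.6 to 272 CPM in the small dogs, with the Cocker Spaniel at 278 CPM. Its log2 difference was -0.38 with 10 dogs and -0.93 without the Cocker Spaniel library (adjusted exact permutation p = 0.952 and 0.396). The classes overlapped fully on chromosome 14 (15.7 to 116 CPM in 4 large and 16.6 to 110 CPM in 6 small dogs), on chromosome 27 (3.78 to 28.2 and 6.76 to 58.1 CPM) and in the unplaced features (3.15 to 25.2 and 2.53 to 20.7 CPM), with adjusted exact permutation p of 0.952 for each.

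**Figure D4:**
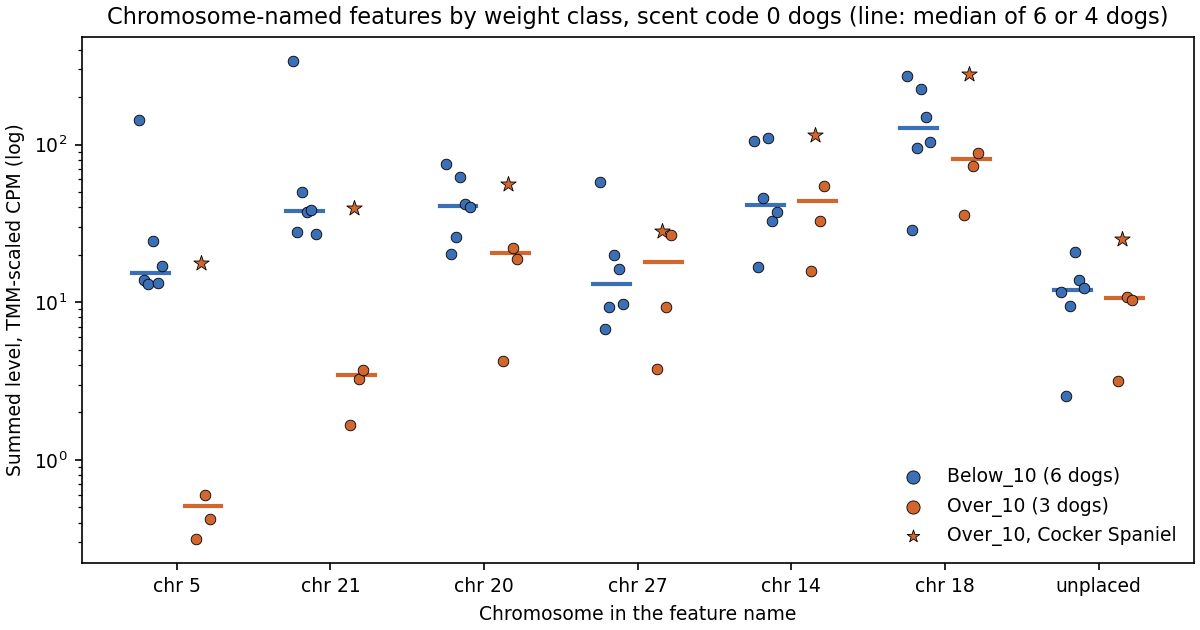
Summed TMM-scaled CPM (log axis) of the 7 chromosome groups with at least 10 features in the scent code 0 dogs, with a star for the Cocker Spaniel and a line for the class median. The 3 other Over_10 dogs lie at 0.315 to 0.600 CPM for chromosome 5 and 1.65 to 3.69 CPM for chromosome 21, below every Below_10 dog, and overlap with them for chromosomes 14, 18 and 27.

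The make-up of the chromosome-named reads shifted with these chromosomes. Chromosome 5 held 0.393% of them in the Doberman pinscher (4 of 1019 reads, 95% Wilson interval 0.153 to 1.00), 0.328% in the Bulldog terrier (7 of 2137, 0.159 to 0.675) and 0.156% in the English pointer (5 of 3201, 0.0667 to 0.365). The lowest share in a small dog was 3.31% in the Poodle (190 of 5746, 2.87 to 3.80), and the Cocker Spaniel had 2.30% (392 of 17031, 2.09 to 2.54). Chromosome 21 held 1.37% to 2.06% in the 3 large dogs and 5.35% to 26.7% in the small dogs, with 5.16% in the Cocker Spaniel. Within the chromosome-named reads, both chromosomes were thus lower in each of those 3 dogs than in any small dog. Chromosome 18 held 33.1% to 44.6% in the 3 large and 16.6% to 37.2% in the small dogs, and here the classes overlapped. Other groups had higher shares in each of the 3 large dogs than in any small dog: 17.97% to 20.3% against 8.20% to 15.8% on chromosome 14, 4.71% to 9.90% against 2.54% to 4.56% on chromosome 27, and 3.87% to 5.85% against 0.913% to 3.48% in unplaced features. The Cocker Spaniel lay within the range of the small dogs in these 3 groups, at 15.03%, 3.66% and 3.28%. Shares of 1 total are not independent of each other. The intervals cover counting error only.

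Single chromosome-named features were called by edgeR with TMM scaling once the Cocker Spaniel library was left out. That library was set aside partly for its values on these same features, so the calls are no independent support. With 10 dogs 101 of the 208 passed the low-count filter, and 0 were called either way by edgeR. Of these fits 67 were below 0, and their median log2 difference was -0.86 against 0.01 over all features. DESeq2 ran without that filter, on features with any read. It called 15 of 195 lower and 0 higher, against 1178 of 26547 lower over all features. With the Cocker Spaniel library left out it called 79 of 194 lower and 0 higher, against 1805 of 26190 lower over all features. In edgeR without the Cocker Spaniel library 114 passed the filter and 46 were called lower, against 5.9% of all features, and 0 higher. Called lower were 15 of 18 tested on chromosome 21, 6 of 8 on chromosome 5, 5 of 11 on chromosome 20, 4 of 25 on chromosome 18, 2 of 11 on chromosome 14 and 1 of 6 on chromosome 27, and the rest lay on chromosomes with under 10 such features, such as 3 of 4 on chromosome 35 and 2 of 2 on chromosome 9. Their number was 36 with age as a covariate and 0 with RIN, and it ran from 0 to 39 when 1 more dog was left out. Features high only in small dogs can pass the filter through them alone, so the 114 are not the whole group. For 21 of the 114 the 3 large dogs had no read, and for 42 they had at most 3 reads together. With every pooled count below 3 raised to 3 reads over the 3 libraries, the median log2 ratio of pooled CPM was -2.33.

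The most abundant feature of each of 4 chromosomes over the 10 dogs shows what the levels look like in reads. These were chosen by level after the values were known, and near-identical copies in a multigene family may share reads. On chromosome 5, chr_5_4 had 2, 4 and 0 reads in the Doberman pinscher, Bulldog terrier and English pointer, 160 in the Cocker Spaniel and 535, 63, 62, 157, 68 and 105 in the small dogs (fitted log2 difference without the Cocker Spaniel library -5.57 ± 0.53, SE, edgeR adjusted p = 0.0250). On chromosome 21, chr21_57 had 0, 0 and 1 reads in the 3 large dogs, 67 in the Cocker Spaniel and 398, 43, 30, 20, 20 and 8 in the small dogs. Its neighbour in level, chr21_58, had no read in those 3 dogs and 516 in the 6 small dogs together, so that it was at least 84.9-fold lower in pooled CPM with the large dogs set to 3 reads over the group. The Pomeranian gave 378 of these 516 reads, and without it the bound was 25.4-fold. That dog also gave 535 of the 990 small-dog reads of chr_5_4 and 398 of the 519 of chr21_57, so the choice by level leaned on it.

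On chromosomes 18 and 14, which did not pass, the top feature was read in large dogs too. On chromosome 18, chr18_126 had 112, 188 and 209 reads in the 3 large dogs and 327, 0, 86, 500, 462 and 158 in the small dogs, with none in the Jack Russel Terrier (log2 difference 0.02 ± 0.95, SE, edgeR adjusted p = 0.994 without the Cocker Spaniel library). On chromosome 14, chr14_31 had 73, 110 and 219 reads in the 3 large dogs and 93 to 287 in the small dogs (log2 difference -0.03 ± 0.52, SE, edgeR adjusted p = 0.976). For both the Cocker Spaniel had the highest level of all 10 dogs, with 1131 and 1181 reads or 51.0 and 53.3 CPM.

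**Figure D5:**
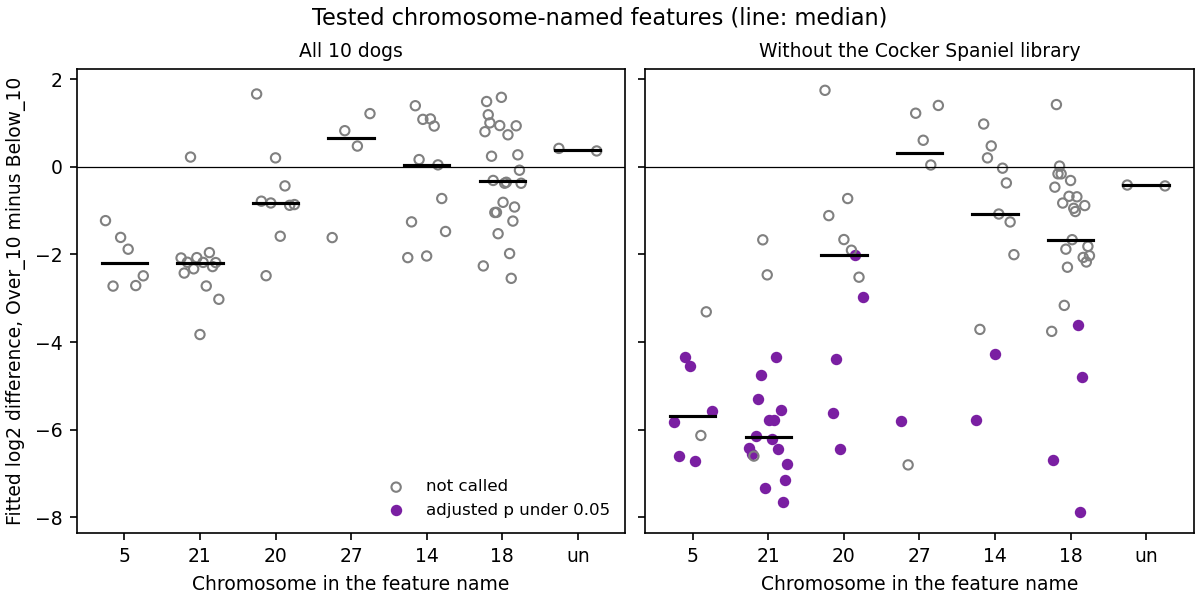
Fitted log2 difference (Over_10 minus Below_10) of each tested feature of the 7 chromosome groups with at least 10 features, with all 10 dogs (left) and without the Cocker Spaniel library (right); filled points were called and lines are medians. The medians of chromosomes 5 and 21 lie at -2.18 and -2.19 on the left and at -5.70 and -6.17 on the right, while that of chromosome 27 lies above 0 in both. Fitted values of features with no read in a class depend on edgeR's prior count and are no bound.

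Whether the size difference depended on the scent code was tested by an interaction term over all 17 dogs. Of 17940 features 0 were called (0%) by edgeR, with 985 at an unadjusted p under 0.05, and 0 of the 154 chromosome-named features tested were called. Without the Cocker Spaniel library 0 were called as well, with 1186 at an unadjusted p under 0.05. The Dachsund library stayed in that fit. A different size effect was thus shown for no feature, which does not show that the effects are alike. In the scent code 1 dogs the chromosome 5 features summed to 28.6 and 22.1 CPM in the 2 Below_10 dogs and to 0.286, 0.424, 20.96, 1.24 and 0.912 CPM in the 5 Over_10 dogs. The first Below_10 value is that of the Dachsund library, which resembled the Cocker Spaniel library and had the lowest RIN of the series (5.9). For chromosome 21 the values were 74.7 and 83.0 CPM against 11.4, 2.55, 56.8, 4.45 and 5.01 CPM, in the same order of dogs. A single one of these large dogs, of the breed labelled Labrador_Retriever_1, labelled age 0.5 and the only dog of batch 5, lay on both chromosomes within the range of the 6 scent code 0 small dogs, though below both scent code 1 small dogs.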

How the data were processed

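RNA of olfactory epithelium was sequenced as polyadenylated, paired-end libraries of 150 bp reads, per the labels' protocols. The authors deposited whole-number read counts per feature, without normalization, and a second table of 16917 features as log2 values whose file name says that a batch effect was taken out. Per the submitters' processing notes, the tools were STAR 2.5.3, Trim Galore 0.3.1, HTSeq, DESeq2, edgeR and limma, with no role stated. Genome build, annotation and log2 formula were not given in the sources used here. The log2 table entered only an alternative fit, since a later test does not know of degrees of freedom spent on batch.

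Counts of the 10 scent code 0 dogs were kept by filterByExpr on the weight classes (minimum count 10) and fitted in edgeR 4.0.16 on R 4.3.3 by its robust quasi-likelihood method with TMM scaling, in a model of batch and weight class with 5 residual degrees of freedom. P-values were adjusted by Benjamini-Hochberg over all features and called at 0.05. The SE is the log2 difference over the root of F. Replicate numbers only name dogs. Nothing in the labels ties 2 samples to 1 dog, and p-values measure the spread between these dogs. Levels are CPM with TMM factors from all 17 libraries. For values per dog the exact permutation test, two-sided, ran over every split of the dogs and over splits within batches. Alternatives were DESeq2 1.42.0, limma 3.58.1, other scaling, filters and covariates, and leaving out dogs. The fit was tested on simulated counts. Gene lists, marker lists and a rule naming genes by symbol had been written down but need symbols and were not run. Instead the 2 IDs of smallest p in each direction are named. The dogs, lists and tests were chosen with earlier results of these data known, and the 10 dogs are part of the 17 behind those results, so the chromosome 5 and 21 pattern is no independent support. Tables were computed with Python 3.11.15, numpy 2.4.6 and pandas 2.3.3.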

Additional observations from a re-analysis of the deposited data

Results flagged for a closer look

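Of 28 groups of per-dog values examined with Dixon's 95% criterion, 6 held a dog far from the others. Chance flags about 1 in 20 of independent, unselected groups. These groups share dogs and reads, and ENSCAFG00000007949 was chosen by its p, so 6 of 28 cannot be set against that rate. The Cocker Spaniel had a log2 summed level of chromosome 5 features of 4.18, against -0.29 to 0.14 in the other 3 Over_10 dogs, and 19.8% of its counts in the 10 most abundant features, against 8.45% to 9.27%. The other 4 all concern the Pomeranian among the 6 Below_10 dogs. Its log2 summed level was 7.16 for chromosome 5 (3.76 to 4.65 in the others) and 8.41 for chromosome 21 (4.78 to 5.66). Its 10 most abundant features took 18.2% of the counts (6.72% to 10.2% in the others). Its log2 CPM of ENSCAFG00000007949 was 7.63 (5.44 to 5.70 in the others).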

How the results depend on the processing

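The number of features called, 267 with 10 dogs, was 472 with DESeq2 size factors, 692 without the low-count filter, 988 in the deposited log2 values with limma, 1442 with all 17 dogs, 1593 without both the Pomeranian and the Cocker Spaniel libraries and 2350 with the DESeq2 test. It was 0 with library totals only, without the batch term, with age or RIN as a covariate and with log2 weight as a slope (2267 to 3333 at an unadjusted p under 0.05), and 0 to 1747 with 1 dog left out. From the 1747 called without the Cocker Spaniel library it went to 3319 (DESeq2), 1162 (age), 4 (no batch term), 0 (RIN) and 0 to 2148 with 1 more dog left out. The DESeq2 fits ran without the low-count filter, on 26547 and 26190 features with any read. The cause of these shifts was not tested. The difference in the detected number, -61.6, was -56.6 within batches, where it did not pass. Within batches and without the Cocker Spaniel library it was -74.8, at the smallest exact permutation p possible there (0.0556). It passed under all other settings tried. The difference in the share of counts in the 10 most abundant features, 1.42 percentage points, ran from -1.31 (without the Cocker Spaniel library) to 3.03 over dogs left out. Chromosome groups past the threshold were 0 with 10 dogs and 2 (chromosomes 5 and 21) with CPM without TMM and without the Cocker Spaniel library, a range of 0 to 2 over dogs left out. The sign of uncalled log2 differences turned within batches on chromosomes 14 (0.082), 27 (0.26) and unplaced (0.068). Over dogs left out they ran from -0.62 to 0.33 on chromosome 14, -0.93 to 0.054 on chromosome 18, -0.59 to 0.33 on chromosome 27 and -0.47 to 0.46 in unplaced features. The interaction was 0 under every setting tried. No paired analysis was possible because the labels number no replicates across weight classes.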
